A study of Homo sapiens with 10 samples.

Results

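A set of 46 genes for the making of ribosomes, built around PES1, was measured in HeyA8 cells transfected with toxic or control siRNAs. They are nucleolar assembly factors, small nucleolar ribonucleoprotein (snoRNP) proteins and components of RNA polymerase I, and they were found by their Ensembl identifiers among the 58395 genes of the count files. All 46 had enough reads to be tested, as did 16905 of the genes in all. PES1 was selected on these same libraries: the study took it up as an abundant gene that siGGGGGC lowered. The study also required GCCCCC, the match to the siGGGGGC seed, in its 3' UTR. The values of PES1 with siGGGGGC are therefore given as a description with no test. The other 45 members were chosen by function with earlier results of these data known. They fall into the PES1, BOP1 and WDR12 complex with 3 genes, the box C/D snoRNP core with 3, the box H/ACA snoRNP core with 4, large subunit assembly with 11, small subunit processome and assembly with 14, RNA polymerase I transcription with 6 and abundant nucleolar proteins with 5.

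HeyA8 is an established human ovarian cancer line, and each group of cells received a single siRNA duplex at 10 nM by reverse transfection. The 5 groups were siNT1 at 24 h, siGGGGGC at 24 h, siNT1 at 48 h, siGGCAGU at 48 h and siGGGGGC at 48 h, with 2 libraries in each. siNT1 is a non-targeting duplex and served as the control, all 3 duplexes carried 2'-O-methyl groups on the sense strand (S2'OM in the labels of siNT1), and no library from cells without a duplex was analysed here. siGGGGGC and siGGCAGU bear the names of the 6 bases at positions 2 to 7 of their guide strands, the seed through which a guide binds messages in the way of a microRNA. The labels call them siMxy and si34a. The 2 libraries of a group came from wells of 1 line, so the tests measure the spread between wells and libraries only, and fewer cells, dying cells and less message per cell cannot be told apart in bulk RNA.

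Ribosomes are assembled in the nucleolus. RNA polymerase I transcribes the long ribosomal precursor, snoRNPs guide its chemical modification, and a large set of proteins folds, cuts and packs it into the small and the large subunit. PES1, BOP1 and WDR12 form the PeBoW complex, which is needed to mature the rRNA of the large subunit and for proliferation. Many of these genes are known targets of the transcription factor MYC, and growing cancer cells make them at high levels.

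Total counts ran from 19781445 to 42428986 a library, and the structural RNA genes RN7SL2 and SNORD3A took between 19.83% and 31.96% of them. That share differed within groups too, from 24.22% to 31.96% in the siGGCAGU libraries. Of 9 markers of ovarian epithelium and carcinoma, KRT7 lay between 1940 and 5220 normalised reads and VIM between 20400 and 39300, while EPCAM did not exceed 40.6 and MUC16 did not exceed 31.0. With siGGGGGC at 48 h, 6 of the 7 of these markers that could be tested fell, with a median log2 fold change of -1.29, against 27.5% of all genes. The summed normalised reads of all 9 were 27400 and 27600 there, 55300 and 57200 with siNT1 and 46300 and 53300 with siGGCAGU at 48 h, and at 24 h 56100 and 56900 with siNT1 and 51100 and 53500 with siGGGGGC. VIM made up most of the sum, with 20925 and 20409 with siGGGGGC and 37296 and 39330 with siNT1 at 48 h. PAX8, a transcription factor of this lineage, read 118 and 87 with siGGGGGC at 48 h against 674 and 654 with siNT1. With siGGGGGC at 24 h, 2 of the 7 markers already fell, PAX8 (-0.92, adjusted p = 0.000248) and VIM (-0.31, adjusted p = 0.0303). KRT7 and KRT8 rose then (0.46 and 0.44, adjusted p = 0.00168 and 0.0376), where 8.32% of all genes fell and 10.6% rose. The fall of these markers at 48 h came in the same siGGGGGC libraries as the falls of the ribosome genes. Its part in them was not tested. With siGGCAGU at 48 h, 3 of the 7 markers fell and 2 rose (median 0.14), while 37 of 46 members fell (median -0.65). None of 6 markers of blood, endothelial, liver or stromal cells exceeded 57.0 normalised reads in any library, and their sum ran from 9.74 to 67.3. Scaling by total counts in place of TMM factors moved the median of all genes by -0.16 with siGGGGGC and by -0.15 with siGGCAGU at 48 h, by -0.09 with siGGGGGC at 24 h, and by 0.24 between the siNT1 groups.

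The messages a seed can pair with hold its reverse complement, GCCCCC for siGGGGGC and ACTGCC for siGGCAGU. RefSeq on GRCh38.p14 lists mature human microRNAs with the same bases at positions 2 to 7. Of the 6 found, 4 are shown to let the seeds be compared, with bases 2 to 8 in capitals, the first pair for siGGGGGC and the rest for siGGCAGU.
hsa-miR-4488: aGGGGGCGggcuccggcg
hsa-miR-1237-5p: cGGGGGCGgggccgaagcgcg
hsa-miR-34a-5p: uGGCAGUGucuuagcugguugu
hsa-miR-449a: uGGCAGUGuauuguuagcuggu
Not shown are hsa-miR-449b-5p, which shares bases 2 to 8 with miR-449a, and hsa-miR-548au-3p, which shares the siGGCAGU bases and differs at base 8.

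GCCCCC occurred in the longest annotated 3' UTR of 11 of the 46 members, or 23.9%, against 30.16% of 19248 protein-coding genes. PES1 was selected with this match, and without it the count is 10 of 45. ACTGCC occurred in 13 members, or 28.3%, against 32.66% of those genes. In the 3' UTR of the canonical transcript, 9 members held GCCCCC and 12 held ACTGCC. These were 19.6% and 26.1%, against 28.22% and 30.53% of genes. Neither word was therefore more common among the members than among genes at large. PES1 and POLR1A held 3 copies of GCCCCC each, RRP1B and UBTF held 2 each, and BOP1, NOP2, NOP14, HEATR1, RRP12, POLR1C and NOLC1 held 1 each. ACTGCC was present in PES1, WDR12, NOP2, RRP1B, RRP15, MRTO4, POLR1A, POLR1B, POLR1C, UBTF, NCL, NOLC1 and DDX21.

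The sites of PES1 and RRP1B, the members with the lowest and the next lowest change with siGGGGGC, are printed with the seed match in capitals and hg38 coordinates of the capitals. The first 4 lie in the PES1 3' UTR on the minus strand of chromosome 22 and the last 2 in the RRP1B 3' UTR on the plus strand of chromosome 21.
PES1 GCCCCC at chr22:30576763-30576768: ggcccacccaGCCCCCtacctactgc
PES1 GCCCCC at chr22:30576749-30576754: cctacctactGCCCCCattcatcctg
PES1 GCCCCC at chr22:30576723-30576728: gctttccacaGCCCCCtcccacacag
PES1 ACTGCC at chr22:30576752-30576757: ccccctacctACTGCCcccattcatc
RRP1B GCCCCC at chr21:43694096-43694101: gcccagcgcaGCCCCCggctcttacc
RRP1B GCCCCC at chr21:43694685-43694690: ttcccgttatGCCCCCcatacaggag
All 3 GCCCCC copies of PES1 began between bases 278 and 318 of a 3' UTR of 421 bases. The ACTGCC of PES1 shares bases with the second of them, so a single stretch of this UTR holds a match to both seeds. The second copy is followed by an A, the base that lies opposite guide position 1. Neither trait was particular to PES1. A GCCCCC copy of RRP12 and another of POLR1A are followed by an A too, and POLR1A also holds an ACTGCC that shares bases with a GCCCCC.

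Per kilobase of exon, the members differed widely in level in siNT1 cells at 24 h. The length used joins every annotated exon of a gene, also those of rare transcripts, so levels and ranks between genes depend on it. The nucleolar chaperone NPM1 was highest with a CPM of 390 per kilobase, the H/ACA protein NOP10 reached 268 and the methyltransferase FBL 123, and the median of the 46 was 14.6. PES1 stood at 38.6 and 38.8 in its 2 libraries, rank 12 of 46. BOP1 stood at a mean of 19.1 and WDR12 at 14.1, and the libraries of the 3 genes did not overlap. The largest polymerase I subunit, POLR1A, had a level of 1.80, and NOP2 with 1.04 and PPAN with 0.69 came last. The values of these last 2 are uncertain, since NOP2 shares 54.4% of its exon bases with a gene on the same strand and PPAN shares 47.6% with the PPAN-P2RY11 readthrough. Without a stated strand setting, reads of NHP2, HEATR1, NOP14 and NOB1 cannot be told from those of genes antisense to them, which cover 28.0%, 23.1%, 20.7% and 20.4% of their exon bases, and NPM1 has 49 annotated pseudogenes.

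The 3 subunits of PeBoW moved apart. On hg38, PES1 (ENSG00000100029) lies on chromosome 22 from 30576625 to 30607083, WDR12 (ENSG00000138442) on chromosome 2 from 202874261 to 203014798, both on the minus strand, and BOP1 is ENSG00000261236. Values are counts normalised to a common library size. PES1, the subunit with a BRCT domain, was counted at 4535 and 4564 in siNT1 cells at 24 h and at 1325 and 1333 with siGGGGGC, and at 48 h at 4214 and 4540 with siNT1, 3190 and 2922 with siGGCAGU, and 900 and 905 with siGGGGGC. The siGGGGGC libraries were thus below siNT1 at both times and below siGGCAGU at 48 h, at 3.42-fold lower than siNT1 at 24 h and 4.85-fold lower at 48 h. With siGGCAGU the change in PES1 was smaller, -0.52 ± 0.08 (log2, SE, adjusted p = 7.52e-05).

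BOP1, the scaffold that joins PES1 to WDR12, read 1808 and 1995 with siNT1 and 2972 and 2668 with siGGGGGC at 24 h. At 48 h it read 2580 and 2214 with siNT1, 909 and 1064 with siGGCAGU, and 1696 and 2008 with siGGGGGC. BOP1 was therefore higher with siGGGGGC at 24 h (log2 fold change 0.57 ± 0.11, adjusted p = 0.00248) and lower at 48 h (-0.37 ± 0.11, adjusted p = 0.0108), and it was lowest with siGGCAGU (-1.27 ± 0.12, adjusted p = 1.92e-07). The rise of BOP1 at 24 h ended without siNT1 24 h replicate 1 (0.50, adjusted p = 0.0553) and with total-count scaling (0.48, adjusted p = 0.0834). The fall of BOP1 with siGGGGGC at 48 h ended without siGGGGGC 48 h replicate 1 (-0.26, adjusted p = 0.149) and without siNT1 48 h replicate 1 (-0.27, adjusted p = 0.0909).

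WDR12, a WD-repeat protein and the third subunit, read 3506 and 3542 with siNT1 and 3251 and 3428 with siGGGGGC at 24 h. At 48 h it read 2725 and 2961 with siNT1, 2528 and 2359 with siGGCAGU, and 2189 and 2111 with siGGGGGC. Its 24 h change of -0.08 ± 0.08 did not pass the test (adjusted p = 0.58), with a 95% interval from -0.26 to 0.10. At 48 h WDR12 fell with siGGGGGC (-0.40 ± 0.08, adjusted p = 0.000821) and slightly with siGGCAGU (-0.22 ± 0.08, adjusted p = 0.0386). The latter call ended without siGGCAGU 48 h replicate 2 (-0.17, adjusted p = 0.154) and without siNT1 48 h replicate 2 (-0.16, adjusted p = 0.182).

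**Figure D1:**
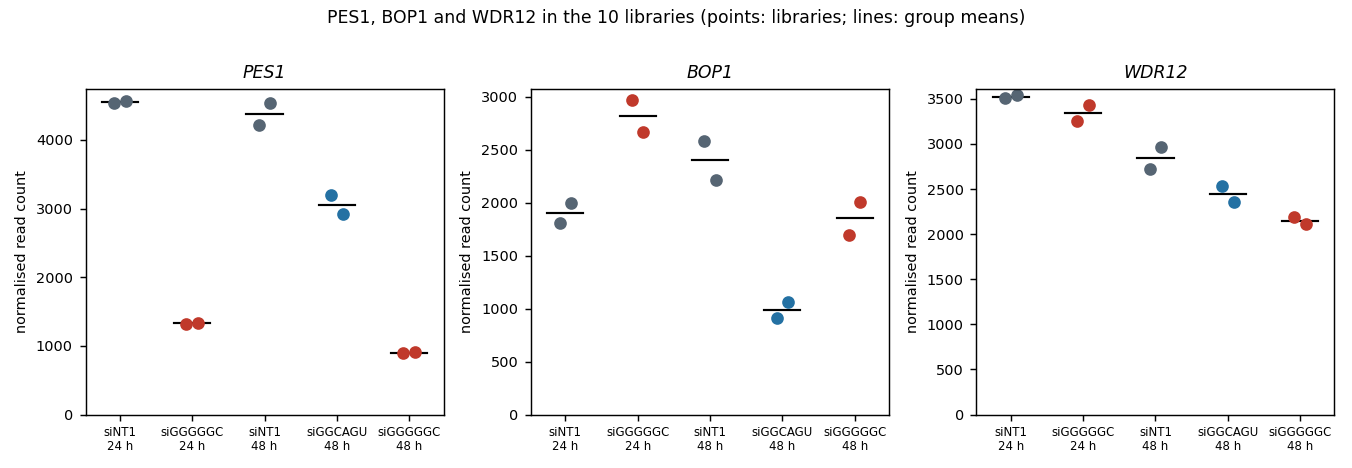
Normalised read counts of PES1, BOP1 and WDR12 (vertical axes, from 0) in the 10 libraries by siRNA and time. Points are libraries and lines group means. PES1 was lowest with siGGGGGC at both times (900 to 1333 reads), BOP1 was lowest with siGGCAGU (909 and 1064), and WDR12 stayed between 2111 and 3542 reads.

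The balance of the 3 messages shifted accordingly. Per kilobase, siNT1 cells held 2.13 and 1.94 PES1 for each BOP1 at 24 h and 1.39 and 1.74 at 48 h. With siGGGGGC these ratios were 0.378 and 0.424 at 24 h and 0.450 and 0.382 at 48 h, so BOP1 was above PES1 per kilobase in all 4 libraries. With siGGCAGU they were 2.98 and 2.33, above the siNT1 libraries of that time. PES1 per WDR12 was 2.74 to 3.29 in siNT1 cells, 2.68 and 2.63 with siGGCAGU and 0.826 to 0.911 with siGGGGGC. The size of each ratio depends on the exon lengths used, while its shift between groups does not. These ratios include PES1, so their shift with siGGGGGC is a description with no test.

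Over all members, 24 h of siGGGGGC changed few genes. Of the 46 members, 7 were lower at an adjusted p below 0.05 and 3 higher, against 8.32% lower and 10.6% higher of the genes tested. That is 15.2% and 6.52% of the members, and without PES1 the counts were 6 and 3 of 45. A change of over 2-fold was reached by 2 members, PES1 and RRP1B, both lower, and the highest change upward was 0.57, where 2.17% of genes passed that rule lower and 1.55% higher. The median log2 fold change was -0.11, beside 0.00 for all genes. RRP1B kept its call in each of the 4 fits that left out 1 library, and the other 5 lower members besides PES1 lost theirs in at least 1. With PES1 counted, lower members numbered 2 without siNT1 24 h replicate 2, 3 without siNT1 24 h replicate 1 or siGGGGGC 24 h replicate 2, and 4 without siGGGGGC 24 h replicate 1, and that of higher members was 0 to 2. With total-count scaling 8 members were lower and none higher, against 1417 and 781 of 16905 genes.

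After 48 h of siGGGGGC most members were below siNT1. The test called 30 members lower and 3 higher, against 27.5% and 27.8% of the genes tested, and the median change was -0.42, beside -0.01 for all genes. Over 2-fold, 10 members were lower and the highest change upward was 0.99, against 11.0% lower and 10.5% higher of genes. The 3 higher members were RRN3, EBNA1BP2 and POLR1C. Without PES1, 29 of 45 were lower. In the same libraries 6 of 7 epithelial and carcinoma markers were lower too, with a median of -1.29, and their part in the members' falls was not tested.

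With siGGCAGU at 48 h, 37 members were lower and 3 higher, against 24.9% and 27.8% of the genes tested. The median change was -0.65, beside 0.02 for all genes. Over 2-fold, 11 were lower and the highest change upward was 0.48, against 9.62% lower and 10.7% higher of genes. The comparisons of siGGGGGC and siGGCAGU with siNT1 at 48 h share the 2 siNT1 libraries, so their values are given side by side and not as separate evidence. PES1, BOP1 and WDR12 had a median change of -0.08, -0.40 and -0.52 with siGGGGGC at 24 h, siGGGGGC at 48 h and siGGCAGU at 48 h, beside -0.11, -0.42 and -0.66 in the other 43 members. BOP1 and WDR12, the subunits not selected on this contrast, stood at 0.57 and -0.08 at 24 h, beside a range from -1.30 to 0.39 in those 43.

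**Figure D2:**
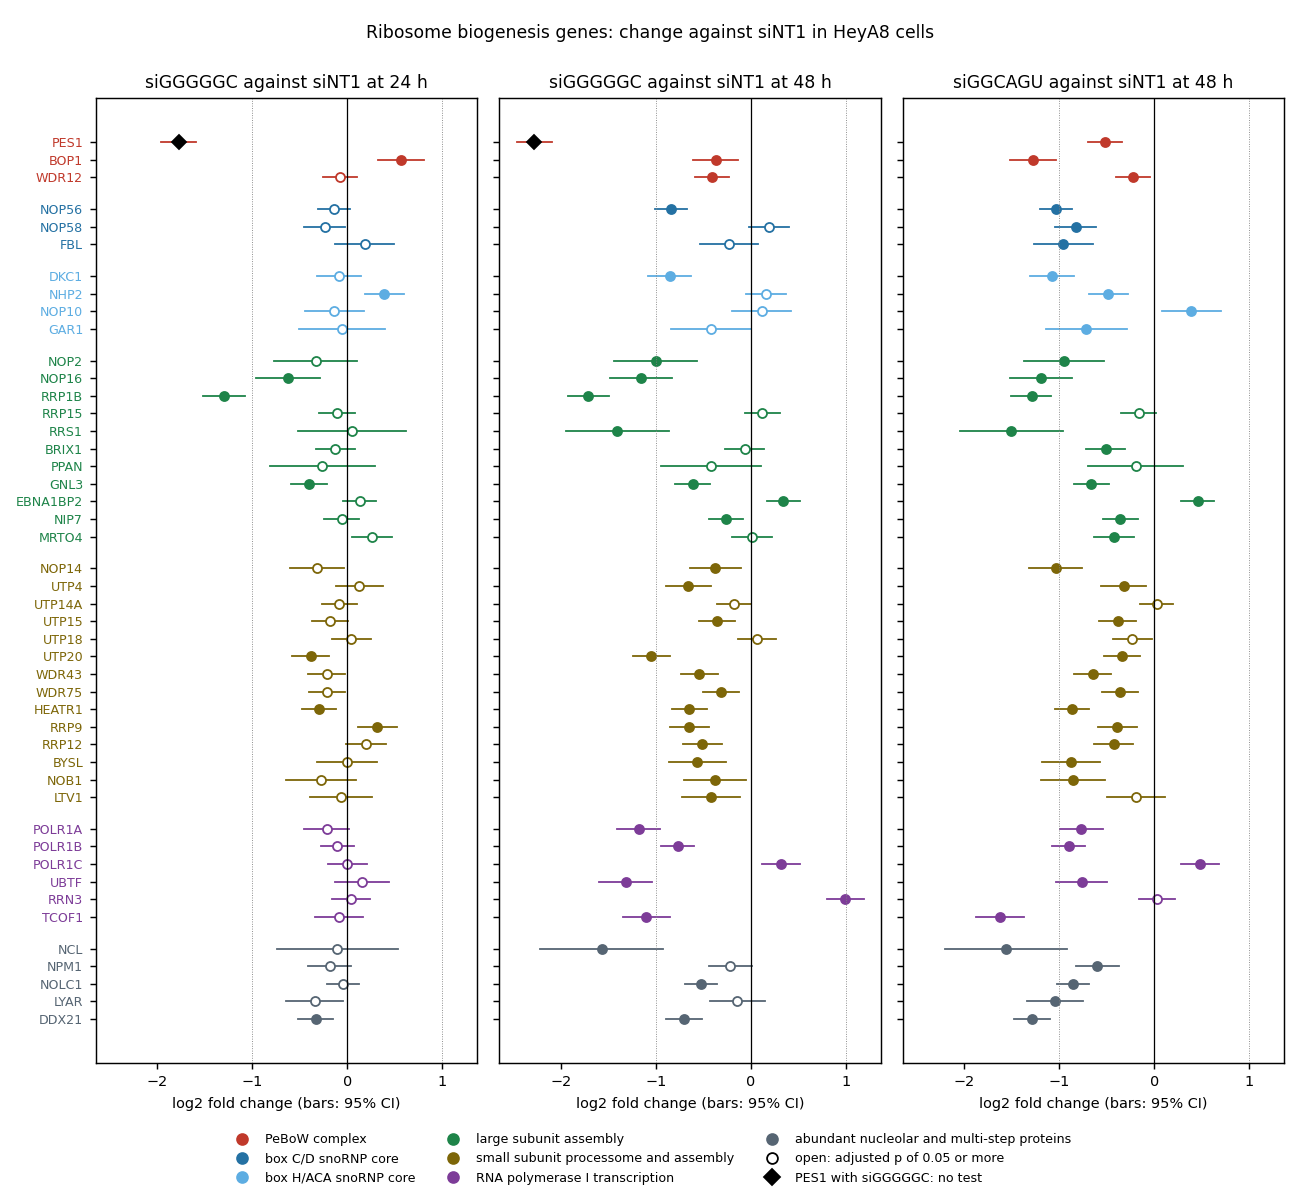
Log2 fold changes against siNT1 (horizontal axes) of the 46 members in rows, coloured by role, for siGGGGGC at 24 h, siGGGGGC at 48 h and siGGCAGU at 48 h. Points are edgeR estimates from 2 libraries a group, bars are 95% confidence intervals, and open points had an adjusted p of 0.05 or more. PES1 with siGGGGGC is a black diamond, since it was selected on that change. Most points lie near 0 at 24 h and left of 0 at 48 h, where RRN3, EBNA1BP2, POLR1C and NOP10 lie to the right for at least 1 siRNA.

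Among the large subunit factors, 3 of 11 fell at 24 h with siGGGGGC, 6 fell and 1 rose at 48 h, and 8 fell and 1 rose with siGGCAGU, where 8.32%, 27.5% and 24.9% of all genes fell. RRP1B, a nucleolar protein of rRNA processing, read 1186 and 1098 with siNT1 and 478 and 450 with siGGGGGC at 24 h. At 48 h it read 1585 and 1385 with siNT1, 575 and 632 with siGGCAGU, and 438 and 469 with siGGGGGC. Every library with either toxic siRNA lay below every siNT1 library. Its log2 fold changes were -1.30 ± 0.11 (adjusted p = 1.03e-06) and -1.71 ± 0.10 (adjusted p = 2.85e-09) with siGGGGGC and -1.29 ± 0.10 (adjusted p = 3.2e-08) with siGGCAGU, and at 48 h it was lower with siGGGGGC than with siGGCAGU (-0.42 ± 0.10, adjusted p = 0.00319).

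NOP16, a nucleolar factor of the large subunit, read 956 and 953 against 664 and 575 at 24 h, a change of -0.62 ± 0.16 (adjusted p = 0.0119). Its 48 h counts were 1109 and 1075 with siNT1, 354 and 584 with siGGCAGU, and 485 and 495 with siGGGGGC, changes of -1.19 and -1.16. Its 24 h call ended without siGGGGGC 24 h replicate 2 (-0.52, adjusted p = 0.136), without siNT1 24 h replicate 1 (-0.62, adjusted p = 0.0774) and without siNT1 24 h replicate 2 (-0.61, adjusted p = 0.0736). GNL3, the GTPase nucleostemin, changed by -0.40 at 24 h, -0.61 at 48 h and -0.66 with siGGCAGU, and its 24 h call ended without siGGGGGC 24 h replicate 2 (adjusted p = 0.0764) and without siNT1 24 h replicate 2 (adjusted p = 0.0607).

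RRS1, which brings the 5S particle to the large subunit, showed a different course. It read 502 and 444 with siNT1 and 569 and 412 with siGGGGGC at 24 h, where the groups overlapped (0.05 ± 0.27, adjusted p = 0.925). At 48 h siNT1 cells held 1054 and 865, siGGCAGU cells 188 and 463, and siGGGGGC cells 330 and 394. RRS1 therefore fell with both siRNAs, with a log2 fold change of -1.40 with siGGGGGC (adjusted p = 0.000248) and of -1.504 with siGGCAGU (adjusted p = 0.000131). The siNT1 level itself had risen by 1.02 from 24 to 48 h (adjusted p = 0.0146).

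EBNA1BP2, a partner of RRS1 in early large subunit particles, went the other way. It read 4718 and 5011 with siNT1 at 48 h, 6862 and 6505 with siGGCAGU and 6131 and 6188 with siGGGGGC, rises of 0.46 ± 0.08 (adjusted p = 0.000214) and 0.34 ± 0.08 (adjusted p = 0.00235). The rise of EBNA1BP2 with siGGGGGC did not pass with total-count scaling (0.18, adjusted p = 0.0817) or with no filter on low counts (0.22, adjusted p = 0.0925). The methyltransferase NOP2 fell at 48 h with both siRNAs, by 1.00 and 0.95, from counts of 107 and 128, with the overlap in exons given above. BRIX1 and MRTO4, both of early large subunit particles, fell with siGGCAGU alone among the comparisons with siNT1 (-0.51 and -0.42), and they were higher with siGGGGGC than with siGGCAGU (0.45, adjusted p = 0.00104, and 0.44, adjusted p = 0.00149). NIP7 changed by -0.26 and -0.36 at 48 h, and its siGGGGGC call ended without either siGGGGGC 48 h library (adjusted p = 0.0949 and 0.0789) or without siNT1 48 h replicate 2 (adjusted p = 0.114), while RRP15 and PPAN passed in none of the comparisons with siNT1.

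Of 14 small subunit factors, 2 fell and 1 rose at 24 h, 12 fell at 48 h with siGGGGGC and 11 fell with siGGCAGU. Of all genes 8.32% fell and 10.6% rose at 24 h, near the 14.3% and 7.14% of these factors, and 27.5% and 24.9% fell in the 48 h comparisons. UTP20, a large scaffold of the processome, read 3264 and 3145 with siNT1 and 2321 and 2582 with siGGGGGC at 24 h. The libraries of 48 h gave 3358 and 3106 with siNT1, 2693 and 2411 with siGGCAGU, and 1595 and 1534 with siGGGGGC. Its changes were -0.39 ± 0.09 (adjusted p = 0.00791), -1.05 ± 0.09 with siGGGGGC at 48 h (adjusted p = 1.7e-07) and -0.34 ± 0.09 with siGGCAGU (adjusted p = 0.00481), and the siRNAs differed at 48 h (-0.71 ± 0.09, adjusted p = 9.95e-06). UTP20 and PES1 were thus among the 7 members lower with siGGGGGC than with siGGCAGU. The 24 h call of UTP20 ended without siGGGGGC 24 h replicate 1 (adjusted p = 0.133) and without either siNT1 24 h library (adjusted p = 0.0895 and 0.0536).

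RRP9, the U3 snoRNP protein that marks the processome, read 1249 and 1338 with siNT1 and 1582 and 1637 with siGGGGGC at 24 h, a rise of 0.32 ± 0.10 (adjusted p = 0.0324). By 48 h the counts were 1105 and 1000 with siNT1, 777 and 823 with siGGCAGU and 620 and 723 with siGGGGGC, and it fell by 0.65 with siGGGGGC (adjusted p = 4.59e-05) and by 0.39 with siGGCAGU (adjusted p = 0.00301). The early rise of RRP9 ended in each of the 4 fits that left out 1 library, with log2 fold changes from 0.27 to 0.38 and adjusted p from 0.084 to 0.244, and with total-count scaling (0.22, adjusted p = 0.333). HEATR1, needed for early processing and rDNA transcription, changed by -0.30 at 24 h, -0.65 at 48 h and -0.87 with siGGCAGU. Its 24 h call ended when any of the 4 libraries was left out (adjusted p from 0.0742 to 0.246).

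The late factors NOB1, which makes the last cut of the small subunit rRNA, and BYSL and LTV1, which help export it, fell at 48 h with siGGGGGC by 0.38, 0.56 and 0.42. With siGGCAGU NOB1 and BYSL fell by 0.86 and 0.88, and LTV1 changed by -0.20 with overlapping groups (adjusted p = 0.271). The call of NOB1 with siGGGGGC ended without either siGGGGGC 48 h library (adjusted p = 0.26 and 0.063) and without siNT1 48 h replicate 1 (-0.19, adjusted p = 0.339). That of LTV1 ended without either siGGGGGC 48 h library (adjusted p = 0.0967 and 0.0926) and without siNT1 48 h replicate 1 (adjusted p = 0.0622). UTP14A and UTP18 passed in neither comparison at 48 h.

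The processome proteins UTP4, UTP15, WDR43 and WDR75, known for their link to rDNA transcription, were all called lower at 48 h, with log2 fold changes of -0.66, -0.36, -0.54 and -0.32 with siGGGGGC and of -0.32, -0.39, -0.65 and -0.36 with siGGCAGU. The siGGGGGC call of WDR75 ended without siGGGGGC 48 h replicate 2 (-0.28, adjusted p = 0.0713). The siGGCAGU call of UTP4 ended without siGGCAGU 48 h replicate 2 (-0.23, adjusted p = 0.169) and without siNT1 48 h replicate 1 (-0.19, adjusted p = 0.207). NOP14, another processome protein, fell by 0.38 with siGGGGGC and by 1.04 with siGGCAGU, and the former call ended without either siGGGGGC 48 h library (adjusted p = 0.0691 and 0.11). RRP12, a factor of subunit export, fell by 0.51 and 0.43.

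At 24 h edgeR called 0 of the 6 polymerase I genes, with 0 at an unadjusted p below 0.05 and 0 by DESeq2. At 48 h all 6 passed with siGGGGGC, 4 lower and 2 higher, against 27.5% and 27.8% of all genes. With siGGCAGU 4 were lower and 1 higher, against 24.9% and 27.8%. POLR1A and POLR1B, the large catalytic subunits, fell by 1.18 ± 0.11 (adjusted p = 2.39e-07) and 0.77 ± 0.08 (adjusted p = 1.23e-06), and with siGGCAGU by 0.77 and 0.90. POLR1A read 1579 and 1281 with siNT1 at 48 h, 870 and 810 with siGGCAGU, and 648 and 613 with siGGGGGC. UBTF, which opens rDNA chromatin for the polymerase, read 999 and 932 with siNT1 and 1126 and 1025 with siGGGGGC at 24 h. Its 48 h counts were 1661 and 1510 with siNT1, 776 and 1076 with siGGCAGU and 592 and 677 with siGGGGGC. It fell by 1.32 ± 0.13 with siGGGGGC (adjusted p = 5.59e-07) and by 0.77 ± 0.13 with siGGCAGU (adjusted p = 0.000106), and the difference of -0.55 ± 0.13 between them also passed (adjusted p = 0.0022).

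TCOF1, the nucleolar protein treacle, read 1220 and 1028 with siNT1 at 48 h, 320 and 401 with siGGCAGU and 526 and 521 with siGGGGGC. It had the largest fall of the members with siGGCAGU, -1.62 ± 0.12 (adjusted p = 2.05e-08), and fell by 1.10 ± 0.12 with siGGGGGC (adjusted p = 1.15e-06). POLR1C, a subunit shared with RNA polymerase III, rose instead, from 978 and 1076 with siNT1 to 1547 and 1326 with siGGCAGU (0.48 ± 0.09, adjusted p = 0.000462) and 1304 and 1262 with siGGGGGC (0.32 ± 0.09, adjusted p = 0.00893). The rise of POLR1C with siGGGGGC ended without siGGGGGC 48 h replicate 1 (0.29, adjusted p = 0.0752) and without siNT1 48 h replicate 1 (0.24, adjusted p = 0.0796), and with total-count scaling (0.16, adjusted p = 0.142).

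RRN3, the initiation factor that brings polymerase I to its promoter, was the member with the largest rise against siNT1 of the same time. It read 1187 and 1274 with siNT1 and 1296 and 1226 with siGGGGGC at 24 h, where the groups overlapped, and 1074 and 1168 with siNT1, 1210 and 1082 with siGGCAGU and 2298 and 2168 with siGGGGGC at 48 h. The 2 siGGGGGC libraries at 48 h stood alone near 1.99-fold of siNT1 (0.99 ± 0.09, adjusted p = 2.5e-07) and above siGGCAGU (0.97 ± 0.09, adjusted p = 3.24e-07). RRN3 with siGGCAGU was at 0.03 ± 0.09 (adjusted p = 0.816), with a 95% interval from -0.17 to 0.22.

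Of the 7 snoRNP core genes, 3 were higher with siGGGGGC than with siGGCAGU at 48 h, NOP58, FBL and NHP2, against 26.7% of all genes, and NOP56, DKC1, GAR1 and NOP10 did not pass. Box C/D particles methylate rRNA, and their proteins NOP56, NOP58 and FBL all fell with siGGCAGU, by 1.03, 0.83 and 0.96, while with siGGGGGC NOP56 alone passed. NOP58 read 4269 and 4550 with siNT1 at 48 h, 2201 and 2768 with siGGCAGU and 4990 and 5078 with siGGGGGC, and the siRNAs differed by 1.02 ± 0.10 (adjusted p = 6.02e-07). FBL read 6579 and 6787 with siNT1, 2664 and 4188 with siGGCAGU and 5869 and 5547 with siGGGGGC, a difference of 0.73 ± 0.15 between the siRNAs (adjusted p = 0.000525). NOP56 did not differ past the threshold between them (0.20 ± 0.08, adjusted p = 0.0519, 95% interval from 0.02 to 0.37).

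Box H/ACA particles turn uridines of rRNA into pseudouridine. Their enzyme DKC1 fell by 0.85 with siGGGGGC and by 1.08 with siGGCAGU at 48 h, from 4108 and 4025 to 2244 and 2262 and to 1660 and 2186. NHP2 read 1007 and 1054 with siNT1 and 1289 and 1416 with siGGGGGC at 24 h, a rise of 0.39 ± 0.10 (adjusted p = 0.0114). The libraries of 48 h gave 1052 and 957 with siNT1, 692 and 740 with siGGCAGU and 1045 and 1198 with siGGGGGC, so it was lower with siGGCAGU (-0.48, adjusted p = 0.000651) and overlapped siNT1 with siGGGGGC. The early rise of NHP2 ended without siGGGGGC 24 h replicate 2 (0.33, adjusted p = 0.126), without either siNT1 24 h library (adjusted p = 0.119 and 0.0532) and with total-count scaling (0.30, adjusted p = 0.194).

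GAR1 read 969 and 931 with siNT1 at 48 h and 381 and 754 with siGGCAGU, a change of -0.72 ± 0.20 (adjusted p = 0.00718). NOP10, the smallest H/ACA protein, read 6612 and 9278 with siNT1 and 11900 and 8900 with siGGCAGU. The groups overlapped, and the rise of 0.39 ± 0.15 (adjusted p = 0.0358) ended without siGGCAGU 48 h replicate 1 (0.16, adjusted p = 0.379), without siNT1 48 h replicate 1 (0.16, adjusted p = 0.376) and with total-count scaling (0.22, adjusted p = 0.107).

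The 5 abundant nucleolar proteins all fell with siGGCAGU, where 24.9% of all genes fell. DDX21, an RNA helicase of rRNA transcription and processing, read 19514 and 20677 with siNT1 at 48 h, 7852 and 8566 with siGGCAGU and 12377 and 12273 with siGGGGGC, falls of 1.29 ± 0.09 (adjusted p = 1.1e-08) and 0.71 ± 0.09 (adjusted p = 6.67e-06). Its fall of 0.33 at 24 h (adjusted p = 0.0147) ended when any of the 4 libraries was left out (adjusted p from 0.0892 to 0.135). NOLC1, which carries snoRNPs and polymerase I, fell by 0.52 with siGGGGGC and 0.86 with siGGCAGU. NPM1 and LYAR fell with siGGCAGU, by 0.60 and 1.04, and with siGGGGGC they read -0.21 and -0.14 (adjusted p = 0.101 and 0.403).

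NCL, the major nucleolar protein nucleolin, varied widely among libraries. It read 6796 and 6564 with siNT1 and 6889 and 5552 with siGGGGGC at 24 h. By 48 h the counts were 20237 and 16042 with siNT1, 3136 and 9125 with siGGCAGU and 5913 and 6293 with siGGGGGC. The siNT1 libraries at 48 h stood alone, and no other library exceeded 9125. NCL fell by 1.57 ± 0.30 with siGGGGGC (adjusted p = 0.000403) and by 1.56 ± 0.30 with siGGCAGU (adjusted p = 0.00044) on the log2 scale. Between the siRNAs the difference was -0.01 ± 0.30 (adjusted p = 0.978), but it was 0.96 without siGGCAGU 48 h replicate 2 (adjusted p = 2.2e-05) and -0.58 without siGGCAGU 48 h replicate 1 (adjusted p = 0.00122), so the siGGCAGU library kept decides its direction. RRS1 and GAR1 split between the same 2 libraries, with 188 and 463 and with 381 and 754, and so did FBL. Replicate 1, the lower for all 4, had 31.96% of its reads on RN7SL2 and SNORD3A and replicate 2 had 24.22%. The part of this share in the split was not tested.

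**Figure D3:**
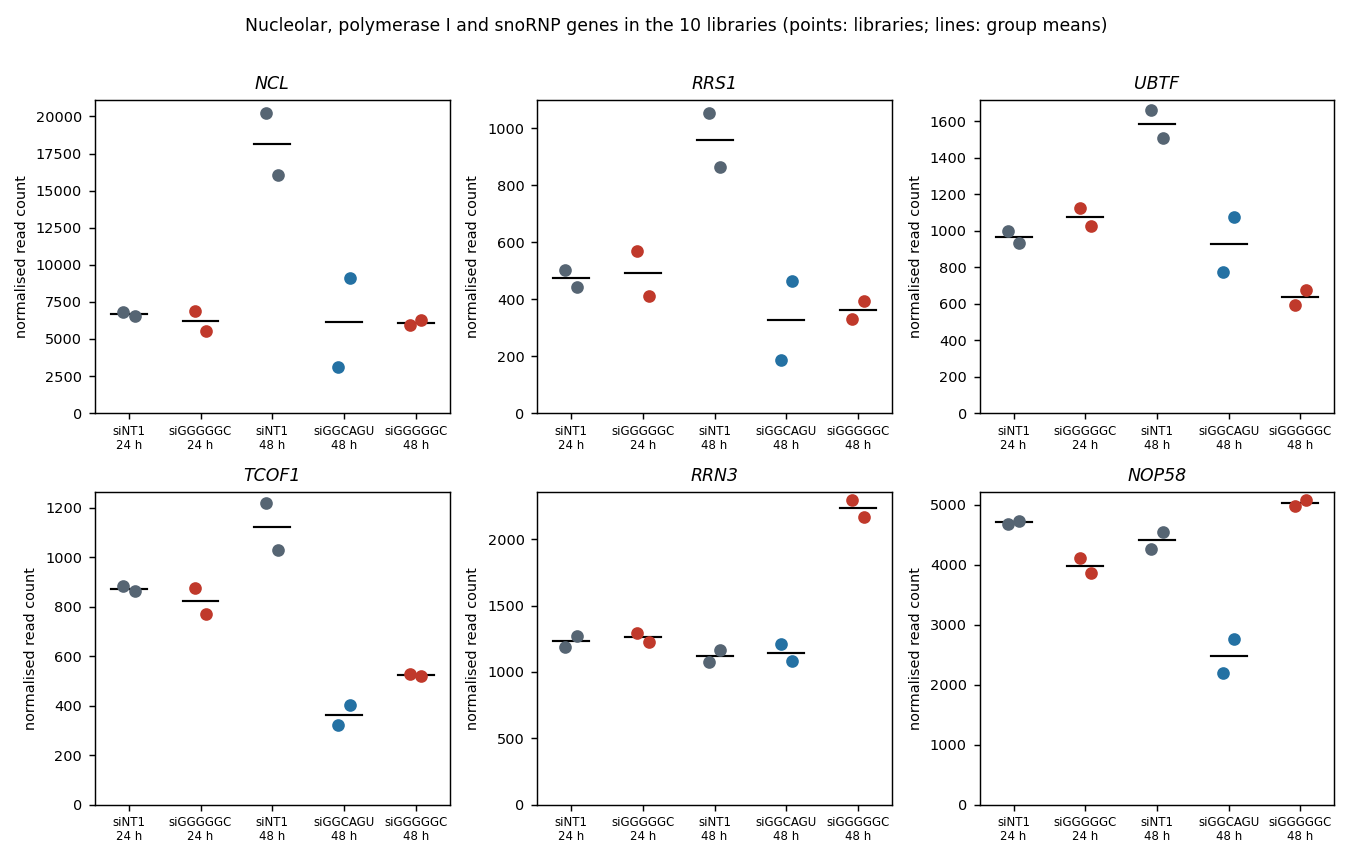
Normalised read counts (vertical axes, from 0) of NCL, RRS1, UBTF, TCOF1, RRN3 and NOP58 in the 10 libraries by siRNA and time. Points are libraries and lines group means. NCL, RRS1 and UBTF were highest in the siNT1 libraries at 48 h, RRN3 was raised with siGGGGGC at 48 h alone (2298 and 2168), and NOP58 was low with siGGCAGU alone (2201 and 2768).

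The control cells also changed with time. From 24 to 48 h of siNT1, 11 members fell and 8 rose, against 7.2% lower and 9.37% higher of the genes tested, with a median of -0.08. NCL rose by 1.44 ± 0.30 (adjusted p = 0.00643), RRS1 by 1.02, UBTF by 0.71 ± 0.13 (adjusted p = 0.00253) and POLR1A by 0.63 ± 0.11 (adjusted p = 0.0018). NOP10, NPM1 and UTP18 fell by 0.47, 0.45 and 0.42. These counts depended on the scaling and on each library, with 1 lower and 9 higher by total counts, and with no lower members left without siNT1 24 h replicate 1, siNT1 24 h replicate 2 or siNT1 48 h replicate 1, where 2, 1 and 3 were higher. POLR1A alone kept its call in all 4 fits that left out 1 library.

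Set directly against siGGCAGU at 48 h, siGGGGGC left 17 members higher and 7 lower, against 26.7% and 27.6% of the genes tested, with a median of 0.10. The higher members included NOP58, RRN3, BOP1 (0.90 ± 0.12, adjusted p = 7.92e-06), LYAR (0.90 ± 0.14, adjusted p = 5.73e-05), FBL, NOP14 and NHP2. Without PES1, 6 of 45 were lower. The lower ones were PES1, UTP20, UBTF, RRP1B, POLR1A, UTP4 and RRP9. BOP1 was thus higher and PES1 lower in the same libraries. Of these calls, 12 of the 17 higher held in each of the 4 fits that left out 1 library, as did those of RRP1B, UTP20 and UBTF among the lower.

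The siGGGGGC effect was lower at 48 h than at 24 h in 18 members and higher in 2, against 15.2% and 13.4% of the genes tested, by the interaction of siRNA and time. Without PES1, 17 of 45 were lower. The largest differences were UBTF (-1.47 ± 0.18, adjusted p = 3.47e-05), NCL (-1.47 ± 0.42, adjusted p = 0.0163) and RRS1 (-1.45 ± 0.37, adjusted p = 0.00806) downward and RRN3 (0.96 ± 0.13, adjusted p = 6.9e-05) upward. The first 3 are genes whose siNT1 level rose with time. The interaction of NCL ended by DESeq2 (-1.46, adjusted p = 0.0909), with total-count scaling (-1.55, adjusted p = 0.0652) and without siGGGGGC 24 h replicate 1 (-1.32, adjusted p = 0.0655), siGGGGGC 48 h replicate 1 (-1.44, adjusted p = 0.0603), siNT1 24 h replicate 1 (-1.501, adjusted p = 0.0516) or siNT1 24 h replicate 2 (-1.46, adjusted p = 0.0568). That of RRS1 ended by DESeq2 (-1.45, adjusted p = 0.0607) and without siGGGGGC 24 h replicate 1 (-1.22, adjusted p = 0.0517).

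Members with a seed match were set beside those without one. PES1, selected for its GCCCCC match and its fall with siGGGGGC, is left out of the siGGGGGC values of the GCCCCC groups here. With siGGGGGC at 24 h, the 10 other members with GCCCCC had a median change of -0.13, and 2 of them fell, RRP1B and HEATR1, while BOP1 rose. The 35 members without it had a median of -0.10, and 4 fell and 2 rose, where 8.32% of all genes were lower and 10.6% higher. At 48 h the medians were -0.59 and -0.40, with 9 of 10 and 20 of 35 lower, against 27.5% of all genes. Of the 11 members with GCCCCC, 7 also hold ACTGCC: PES1, NOP2, RRP1B, POLR1A, POLR1C, UBTF and NOLC1. With siGGCAGU these 7 had a median of -0.77 and the 4 with GCCCCC and no ACTGCC, BOP1, NOP14, HEATR1 and RRP12, a median of -0.95, so the groups of the 2 words cannot be read separately. The 13 members with ACTGCC had a median of -0.77 with siGGCAGU and the 33 without it -0.60. With siGGGGGC at 48 h the same groups had -0.77 and -0.38, with PES1 still counted among the 13. Genes with as many copies differed: POLR1A, with 3 copies of GCCCCC as in PES1, changed by -0.22 at 24 h (adjusted p = 0.19). The copies are placed differently. Those of POLR1A begin between bases 5514 and 6579 of a 3' UTR of 7207 bases, and those of PES1 between 278 and 318 of 421. The part of this placement in the changes was not tested. The split by seed match was made with the results known and carries no test.

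**Figure D4:**
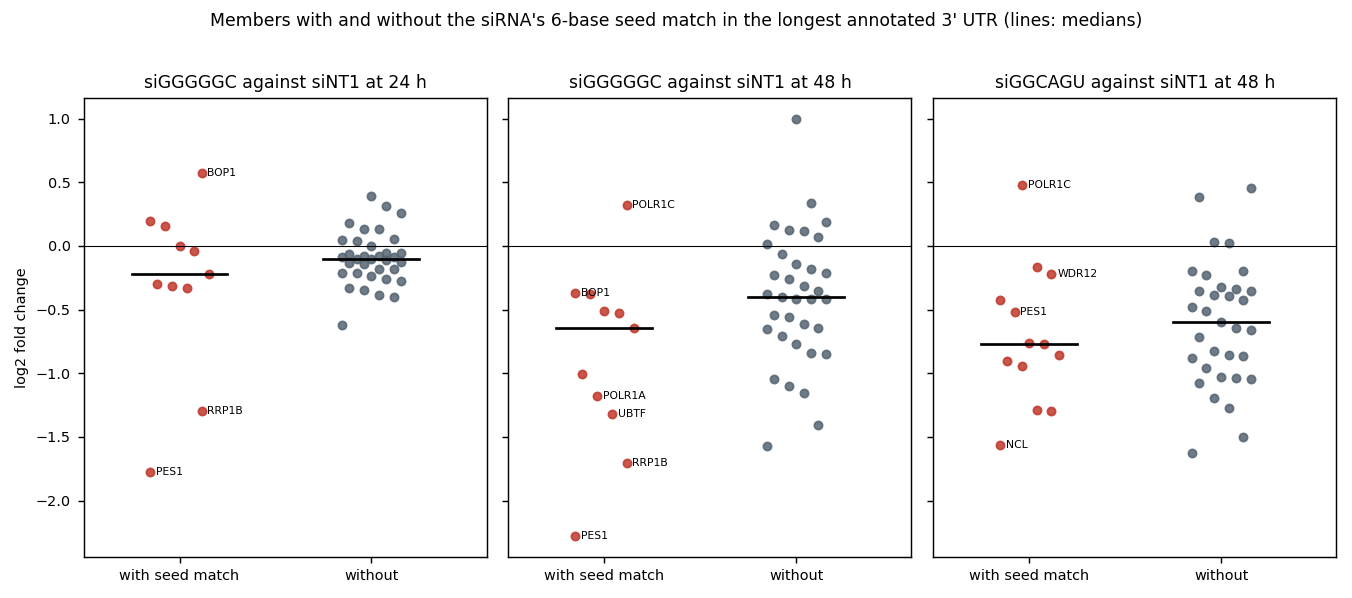
Log2 fold changes against siNT1 (vertical axis) of the 46 members, PES1 included, with and without the 6-base match of the transfected seed in the longest annotated 3' UTR, for siGGGGGC at 24 and 48 h (11 and 35 members) and siGGCAGU at 48 h (13 and 33). Points are genes and lines medians. PES1 and RRP1B lie apart at 24 h, and at 48 h both kinds of members lie mostly below 0. PES1 was selected for its GCCCCC match and its fall with siGGGGGC.

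Other ribosome biogenesis factors, 108 genes outside the 46, had medians nearer 0. At 24 h 17 fell and 17 rose with a median of -0.05, at 48 h 39 fell and 20 rose with a median of -0.08, and with siGGCAGU 61 fell and 9 rose with a median of -0.34. Those that fell were 15.7%, 36.1% and 56.5% of them, against 8.32%, 27.5% and 24.9% of all genes. Those that rose were 15.7%, 18.5% and 8.33%, against 10.6%, 27.8% and 27.8%. EMG1, an rRNA methyltransferase, fell by 2.33 with siGGGGGC at 48 h and rose by 0.32 with siGGCAGU. NOL6 of the processome fell by 1.74 and 1.35, NOL9, a kinase of rRNA processing, fell by 1.42 with siGGGGGC, and WDR74 rose by 1.51. NSA2 and the helicase DHX37 fell with siGGCAGU, by 1.30 and 1.55, and were higher with siGGGGGC than with siGGCAGU (1.67 and 1.29). Of 15 further polymerase I components, 6 fell and 2 rose at 24 h, against 8.32% and 10.6% of all genes. They included POLR2K (-1.83) and POLR2E (-1.63), subunits common to the nuclear polymerases, which the study also chose on these libraries and which are not independent evidence.

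The 78 cytosolic ribosomal protein genes make the proteins that this pathway assembles. With siGGGGGC 6 fell and 2 rose at 24 h, and 20 fell and 15 rose at 48 h with a median of 0.06. With siGGCAGU 20 fell and 3 rose with a median of 0.00. The 25.6% of them that fell at 48 h with each siRNA was near the 27.5% and 24.9% of all genes, and the 7.69% that fell at 24 h near the 8.32%. Those that rose were 2.56% at 24 h, and 19.2% with siGGGGGC and 3.85% with siGGCAGU at 48 h. Of all genes 10.6%, 27.8% and 27.8% rose. In siNT1 cells, 42 of the 78 fell between 24 and 48 h, or 53.8%, against 7.2% of all genes, with a median of -0.37. Total-count scaling moved the median of all genes between those groups by 0.24. Its part in this count was not tested.

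MYC, a transcription factor known to activate many of these genes, read 1468 and 1486 with siNT1 and 1002 and 967 with siGGGGGC at 24 h. Its 48 h counts were 2560 and 2360 with siNT1, 693 and 730 with siGGCAGU and 853 and 923 with siGGGGGC, so every toxic library lay below every siNT1 library. It fell by 0.58 ± 0.09 (adjusted p = 0.000296) and 1.47 ± 0.09 (adjusted p = 2.83e-09) with siGGGGGC and by 1.79 ± 0.09 with siGGCAGU (adjusted p = 3.14e-10). MXD1, which competes with MYC for its partner MAX, rose at 48 h by 1.54 ± 0.12 with siGGGGGC and 0.81 ± 0.13 with siGGCAGU, and MXD4 rose by 0.68 and 0.90. At 24 h MXD1 was at 0.008 (adjusted p = 0.982). Of the same list, MXI1 (-0.11 and -0.09) and MNT (-0.41 and 0.34) passed in neither comparison with siNT1 at 48 h. Of the 9 regulators listed, 2 fell and 1 rose at 24 h, 2 fell and 4 rose with siGGGGGC at 48 h, and 3 fell and 3 rose with siGGCAGU. All genes gave 8.32% lower and 10.6% higher, 27.5% and 27.8%, and 24.9% and 27.8% in these comparisons. The p53 target CDKN1A fell by 0.35 with siGGGGGC at 24 h (adjusted p = 0.0188), rose by 0.75 at 48 h (adjusted p = 8.35e-06) and fell by 0.27 with siGGCAGU (adjusted p = 0.0265). MDM2, another p53 target, was at 0.06 at 24 h (adjusted p = 0.717) and rose at 48 h by 0.56 with siGGGGGC (adjusted p = 8.94e-05) and by 0.45 with siGGCAGU (adjusted p = 0.000652).

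The E-box CACGTG, the preferred site of MYC with MAX, was searched in RefSeq promoters on GRCh38.p14 from 250 bases before to 50 after the start. It reads the same on both strands. It was found in 15 of the 39 members that matched, or 38.5%, against 8.89% of 15345 protein-coding genes. The site of PES1, on chromosome 22 from 30591892 to 30591897, minus strand and 14 bases into the transcript, is shown with the E-box in capitals.
PES1 promoter: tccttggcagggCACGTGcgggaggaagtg
The 15 members with the E-box changed by medians of -0.07, -0.42 and -0.39 with siGGGGGC at 24 h, siGGGGGC at 48 h and siGGCAGU at 48 h, and the 24 without it by -0.13, -0.41 and -0.69. The promoters of NCL and UBTF, which fell with both siRNAs at 48 h, held no match in this window. A match of these letters does not say that a factor binds there.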

How the data were processed

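Total RNA from HeyA8 cells was depleted of rRNA and sequenced paired-end, in 2 libraries for each of 5 groups. Reads were trimmed with Trimmomatic, aligned to hg38 with TopHat on Bowtie2 or with STAR, and counted per Ensembl gene with HTSeq. The paper names TopHat or STAR, and the sample record lists TopHat and Bowtie2 without STAR. The strand setting is not given in the sources used here. The authors deposited raw counts per gene, with no normalisation, for each library, and 58395 genes were read. The authors' tables of comparisons, which hold mean normalised counts, fold changes and p-values, were not used.

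Counts were fitted in R 4.3.3 with edgeR 4.0.16 (TMM factors, filterByExpr, quasi-likelihood F test, 5 residual degrees of freedom). All 10 libraries entered 1 fit, 16905 genes passed the filter, and p-values were adjusted by Benjamini and Hochberg over them. The threshold was an adjusted p of 0.05, and a second rule added an absolute log2 fold change above 1. A normalised count is a count divided by the TMM library size and multiplied by the mean of these sizes. The common biological coefficient of variation was 0.0837. All p-values named adjusted come from this fit unless another tool is named. DESeq2 1.42.0, other scalings and filters, a replicate block and fits without each library served as alternatives.

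The members and the gene lists were chosen with earlier results of these data known, and no list was tested. Any member may be named. Values in every library are given for PES1, BOP1 and WDR12, for the 3 lowest and 3 highest called changes of each siRNA against siNT1, and for further members chosen after their values were seen. Of other lists, MYC, regulators and the 2 largest called falls and rises were open to naming. Seed matches were sought in the longest 3' UTR of GENCODE 44 on hg38, and miRNAs and promoters come from RefSeq.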

Additional observations from a re-analysis of the deposited data

Results flagged for a closer look

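The effect of siGGGGGC differed between 24 and 48 h, by the test of the interaction, in 18 members downward and 2 upward. PES1 is among the 18 by the rule, with -0.50 on the log2 scale, but it was chosen on these libraries and its value is a description, which leaves 17 of 45.

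BOP1, the scaffold of the complex, went from a rise at 24 h to a fall at 48 h, a difference of -0.94 ± 0.16 (adjusted p = 0.000448). RRP9 of the U3 snoRNP did the same, with -0.96 ± 0.14 (adjusted p = 0.000108), although its rise at 24 h ended whenever a library was left out.

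NCL, RRS1 and TCOF1 fell at 48 h and not at 24 h, with differences of -1.47, -1.45 and -1.01 (adjusted p = 0.0163, 0.00806 and 0.000317), and in the siNT1 cells all 3 were called higher at 48 h than at 24 h. RRN3, the polymerase I initiation factor, moved upward instead, by 0.96 ± 0.13 (adjusted p = 6.9e-05). RRP1B had already fallen at 24 h and differed by -0.41 ± 0.15 (adjusted p = 0.046). That call ended by DESeq2 (adjusted p = 0.0969), with total-count scaling (adjusted p = 0.137) and in 7 of the 8 fits without a library of the 4 groups concerned.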

How the results depend on the processing

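The direction of the median change of the members was kept under all alternatives for both siRNAs against siNT1 at both times, for siGGGGGC against siGGCAGU and for the interaction, and was not kept for siNT1 between times. For 24 h of siGGGGGC, 17 members were lower and 5 higher when only the groups compared were fitted. In that fit 2488 of 14869 genes were lower and 2617 higher. With total counts 0 members were higher, against 781 of 16905 genes, and the median was -0.20. At 48 h, 1 was higher with no filter and 1 with total counts, with medians of -0.54 and -0.58. Those fits called 3993 of 41458 and 3236 of 16905 genes higher. For siGGCAGU the median was -0.81 with total counts. For the interaction, 1 was higher with no filter, with total counts and with RN7SL2 and SNORD3A left out. Genes higher in these 3 fits numbered 1626 of 41458, 1544 of 16905 and 2116 of 16834. The median was -0.49 with no filter and -0.42 with total counts. For siNT1 between times, 4 were lower with no filter and 1 with total counts, against 728 of 41458 and 179 of 16905 genes. The median reversed to 0.009 and 0.163. The cause was not tested.

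Leaving out 1 library gave 2 to 4 lower and 0 to 2 higher members for siGGGGGC at 24 h, with medians from -0.11 to -0.09. It gave 25 to 29 and 2 to 4 at 48 h, from -0.50 to -0.43, and 36 to 38 and 2 to 3 with siGGCAGU, from -0.68 to -0.57. It gave 5 to 9 and 13 to 21 for siGGGGGC against siGGCAGU, from 0.09 to 0.22, 13 to 19 and 1 to 3 for the interaction, from -0.37 to -0.35, and 0 to 12 and 1 to 10 for siNT1 between times, from -0.11 to -0.05. A group left with 1 library is assumed to vary like the others.

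The replicate numbers did not pair the samples: same-numbered deviations correlated between -0.0894 and 0.0266. The replicate block gave 7 lower and 3 higher members for siGGGGGC at 24 h, 29 and 3 at 48 h, 36 and 3 with siGGCAGU, 6 and 16 between the siRNAs, 15 and 2 for the interaction, and 8 and 7 for siNT1 between times.

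Of 2168 single-gene values under alternatives, 1893 kept their call and direction, 218 lost the call, 24 gained one and 33 turned direction. Changes that turned were near 0, apart from NCL, RRS1 and NOP16 between the siRNAs. At 24 h RRS1 turned with total counts (-0.043) and without siGGGGGC 24 h replicate 1 or siNT1 24 h replicate 2, with a range from -0.192 to 0.273 over the libraries left out. POLR1C turned with a mean count of 50 (-0.014), only the groups compared (-0.016), RN7SL2 and SNORD3A left out (-0.001), total counts (-0.092) and without siGGGGGC 24 h replicate 1 (-0.026 to 0.046). RRN3 turned with total counts (-0.058) and without siNT1 24 h replicate 1 (-0.014 to 0.1), and without siGGGGGC 24 h replicate 2 TCOF1 (-0.171 to 0.011) and NCL (-0.258 to 0.052) turned. For siGGGGGC at 48 h NHP2 turned with total counts (-0.002), and NOP10 with no filter (-0.006), total counts (-0.034) and without siNT1 48 h replicate 1 (-0.119 to 0.372). With siGGCAGU RRN3 turned with no filter (-0.053), only the groups compared (-0.018), total counts (-0.131) and without siGGCAGU 48 h replicate 1 or siNT1 48 h replicate 1 (-0.053 to 0.107). Between the siRNAs NOP16 turned with no filter (-0.006) and without siGGCAGU 48 h replicate 1 (-0.256 to 0.462), RRS1 without that library or siGGGGGC 48 h replicate 2 (-0.359 to 0.937), and NCL with DESeq2 size factors (0.014), DESeq2 (0.018), the block (0.027) and without siGGCAGU 48 h replicate 2 or siGGGGGC 48 h replicate 1 (-0.583 to 0.955). PES1 in siNT1 cells turned with no filter (0.028), total counts (0.182) and without siNT1 48 h replicate 1 (-0.103 to 0.007).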
